A study of Mus musculus with 6 samples.

Results

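Complement components and their regulators were examined in cultured mouse liver endothelium through 9 genes taken by symbol from the deposited count table of 23337 genes: C4b, C2, Masp1, C3, Cfb, Cfp, Serping1, Cd55 and Cd59a. All 9 were found, and all 9 passed the filter on low counts, among 14222 genes tested. The cells were primary sinusoidal endothelial cells, the fenestrated lining of the hepatic capillaries, isolated from mouse liver with magnetic beads. Those of the stretch group underwent cyclic stretch of 4% at 1 Hz on a Flexcell device, which deforms a flexible culture membrane, and those of the control group were left unstretched. Both groups were grown with serum, plated on collagen IV and then starved of serum before the experiment. The sources used here do not state the strain, age or genotype of the mice, the antibody on the beads or the length of the stretch. RNA was sequenced in stretch replicates 1, 2 and 4 and in control replicates 2, 3 and 4. No label says that these came from separate isolations, so p-values measure the spread between these 6 libraries, which may be in part technical.

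Complement is a cascade of proteases and opsonins that tags and lyses targets, and the liver makes most of its soluble components. The classical and lectin pathways cleave C4 and C2, the alternative pathway is built from C3 and factor B and held together by properdin, and all of them meet at C3. Host cells hold the cascade in check with inhibitors on their membranes and in plasma. Among the members, C4b, C2 and Masp1 belong to the classical and lectin start, C3, Cfb and Cfp to the central and alternative steps, and Serping1, Cd55 and Cd59a to the inhibitors.

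Promoter sequences from RefSeq (GRCm38.p6) matched 4 of the 9 members, C3, Cfp, Cd55 and Cd59a. The 250 bases before the start are shown for C3 and Cd59a, because these were a higher and a lower member whose change did not hinge on any single library. Capitals mark every match, on either strand, to GGG and CC with 5 bases of any kind between them (NF-kB type), GAAA and GAAA with 2 bases between them (interferon response type), TTC and GAA with 3 bases between them (STAT type) or TTNNGNAA (C/EBP type). C3 is at chr17:57228137-57228386 on the minus strand and Cd59a at chr2:104095551-104095800 on the plus strand, each written along the gene.
C3: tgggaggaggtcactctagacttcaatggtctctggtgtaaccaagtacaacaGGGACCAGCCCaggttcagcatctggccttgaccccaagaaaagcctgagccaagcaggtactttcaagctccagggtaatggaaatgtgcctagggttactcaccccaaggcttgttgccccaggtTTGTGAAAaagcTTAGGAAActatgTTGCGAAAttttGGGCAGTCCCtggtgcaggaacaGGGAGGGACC
Cd59a: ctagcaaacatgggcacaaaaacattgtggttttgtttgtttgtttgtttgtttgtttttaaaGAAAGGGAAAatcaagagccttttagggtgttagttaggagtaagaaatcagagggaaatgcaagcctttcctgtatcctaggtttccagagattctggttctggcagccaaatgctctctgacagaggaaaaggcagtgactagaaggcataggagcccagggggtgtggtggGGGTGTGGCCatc
The C3 promoter held matches to the NF-kB and C/EBP letters, and the Cd59a promoter held matches to the NF-kB and interferon response letters. In C3, some matches of the same kind overlap each other on opposite strands. No base fell in matches of different kinds. Of 32841 promoters of the same length in the table, 45.8% held the NF-kB type, 36.9% the C/EBP type, 7.02% the STAT type and 2.98% the interferon response type.

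The libraries held between 58503669 and 68489956 counts in the stretch group and between 48948948 and 57923937 in the control group. Endothelial markers were abundant throughout: their sum over 20 genes was 14306 to 16081 CPM (counts scaled to the TMM-adjusted library size) in stretch and 17021 to 18871 CPM in control libraries, with Cdh5 at 3296 ± 287 and 2908 ± 275 CPM and Stab1 at 2278 ± 231 and 3290 ± 306 CPM (SD, n = 3 per group). Of these 20 markers 14 were lower after stretch and 0 higher, and 16 and 0 without stretch replicate 1. Stab1 was among the lower and Cdh5 did not pass. Over all genes tested 22.6% were lower and 21.4% higher, and 19.0% and 18.1% without stretch replicate 1. Stretch replicate 1 stood apart in its hepatocyte markers. Their sum over 30 genes, led by Trf and Alb, was 1133, 257 and 254 CPM in stretch replicates 1, 2 and 4, against 148, 128 and 178 CPM in control replicates 2, 3 and 4. Of the 27 hepatocyte markers tested 20 were higher after stretch and 0 lower, and 9 and 0 without stretch replicate 1. Macrophage markers, with Cd68 and Fcer1g the most abundant of 19 by the mean over all 6 libraries, summed to 188 to 240 CPM in stretch and 150 to 167 CPM in control libraries. Bile duct markers, with Cldn4 and Spp1 the most abundant of 8, summed to 228 to 278 CPM in stretch and 138 to 176 CPM in control libraries. The macrophage gene Lyz2, chosen after its values were seen, was at 33.5 ± 2.64 CPM in stretch and 15.5 ± 4.87 CPM in control libraries (SD, n = 3 per group). It was 2.16-fold higher (edgeR adjusted p = 0.00220), whereas the sum over all 19 macrophage markers averaged 214 CPM in stretch and 160 CPM in control libraries. Of the 14 macrophage markers tested 8 were higher after stretch, 0 were lower and 6 did not pass. Stellate cell and fibroblast markers (16 genes, led by Tagln and Col3a1) overlapped, at 93.9 to 153 and 118 to 133 CPM, as did mesothelial markers (7 genes, led by Gpm6a and Msln), at 25.4 to 39.0 and 37.4 to 44.6 CPM. The 11 lymphocyte and neutrophil markers summed to under 1 CPM in every library, with 5 of them at 0 throughout. In such bulk samples fewer cells of a type and less RNA per cell cannot be told apart.

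Stretch libraries had more transcript of C3, C4b, Cfb and Serping1 and less of Cd59a and Masp1 than control libraries, while Cfp, C2 and Cd55 did not pass the test. The rises ran from 1.48-fold for Serping1 to 4.42-fold for C4b, and the falls were 1.33-fold for Masp1 and 1.77-fold for Cd59a. In the comparison of stretch with control by edgeR's quasi-likelihood test, 4 of 9 members were higher and 2 lower at a Benjamini-Hochberg adjusted p under 0.05, where 21.4% of all genes tested were higher and 22.6% lower (44.0% in either direction). The median log2 fold change was 0.50 over the members and -0.01 over all genes tested. Stretch and control CPM ranges were separate for 7 members, 5 of them higher and 2 lower, against 26.7% and 29.2% of all genes (55.9% in either direction). Without stretch replicate 1, 3 members were higher and 2 lower (18.1% and 19.0% of all genes), and their median was 0.39. Without control replicate 2, and likewise without control replicate 3, 1 member was higher, C3, and 2 were lower. Of 14518 genes tested without control replicate 2, 2348 were higher and 2408 lower. Of 14465 tested without control replicate 3, these were 2584 and 2737.

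**Figure D1:**
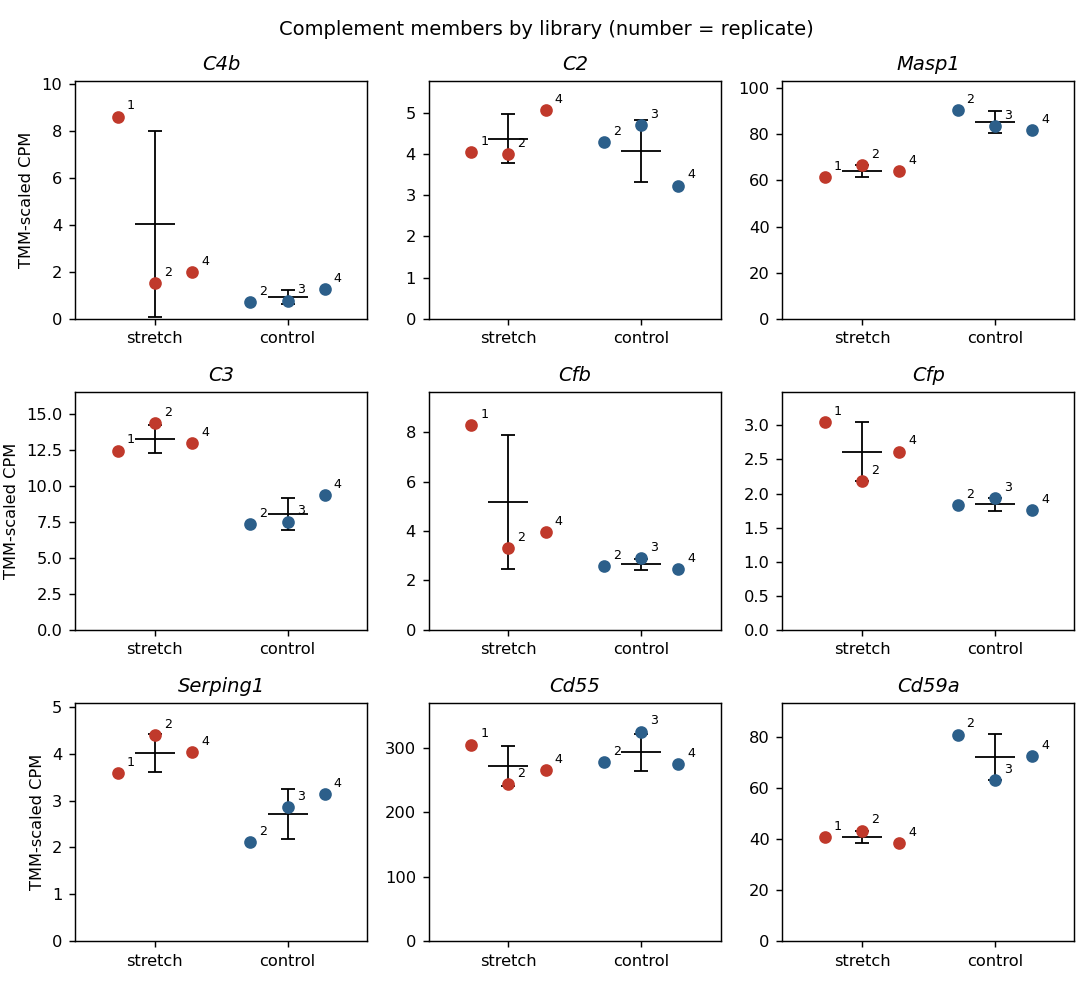
TMM-scaled CPM of the 9 members by library, stretch on the left and control on the right of each panel; points are libraries marked with their replicate number, and bars are the mean and SD (n = 3 per group). C4b and Cfb show stretch replicate 1 far above the other libraries (8.63 and 8.30 CPM), whereas the 3 stretch libraries lie close together for C3, Cd59a and Masp1.

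Levels of different genes were compared per kilobase of coding length, on the RPKM scale that the authors deposited. Cd55 was the most abundant member, at 96.3 ± 9.71 RPKM in stretch and 110.5 ± 11.1 RPKM in control libraries (SD, n = 3 per group). Next came Masp1, at 20.9 ± 1.21 RPKM in stretch and 29.6 ± 1.121 RPKM in control libraries, and Cd59a, at 20.2 ± 1.56 RPKM in stretch and 38.01 ± 4.29 RPKM in control libraries. The library ranges of these 2 overlapped in the stretch group and did not overlap in the control group, where Cd59a was the higher. All other members were below 3 RPKM in every library. In the stretch group the order went on through C3, Serping1, Cfb, Cfp and C2 to C4b, each overlapping its neighbour. In the control group it went on through C3, C2, Serping1 and Cfp, each overlapping its neighbour, to Cfb at 0.919 ± 0.0818 and C4b at 0.162 ± 0.0548 RPKM, which stood apart. The abundant members were thus membrane inhibitors and a lectin pathway protease, and the soluble components of the convertases were scarce.

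**Figure D2:**
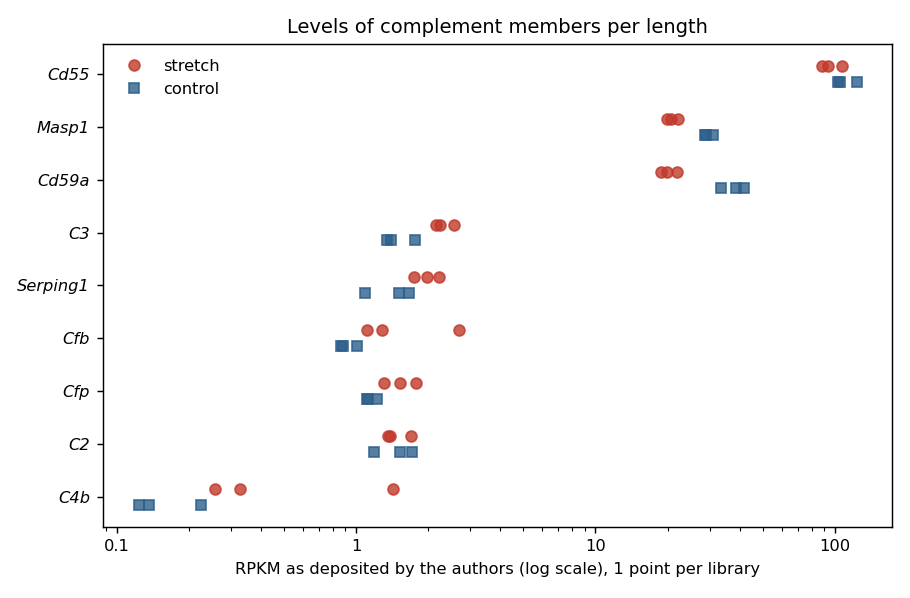
RPKM of each member as deposited by the authors, on a log scale, with 1 point per library, stretch above control in each row; members are ordered by their stretch mean. Cd55, Masp1 and Cd59a sit well to the right of the other 6 members. C4b has the lowest mean in both groups, but in stretch replicate 1 it is above C2 (1.42 against 1.36 RPKM).

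Of the 9 members, C4b had the largest rise, and the one that stretch replicate 1 moved most. It encodes C4, the source of an opsonin and a subunit of the classical and lectin C3 convertase (chromosome 17, 34728381 to 34743897, minus strand, in the class III region of the mouse major histocompatibility complex). C4b had 481, 103 and 112 counts, or 8.63, 1.52 and 1.99 CPM, in stretch replicates 1, 2 and 4, against 42, 39 and 67 counts, or 0.711, 0.771 and 1.25 CPM, in control replicates 2, 3 and 4. Each stretch library was above each control library, and stretch replicate 1 was 4.92 times the mean of the other stretch libraries. The log2 fold change was 2.14 ± 0.64 (SE; edgeR adjusted p = 0.0260). Without stretch replicate 1 it was 0.95 ± 0.32, a fold of 1.93 (edgeR adjusted p = 0.0465), and with the replicate number as a block 0.87, a fold of 1.83 (edgeR adjusted p = 0.0186). The call was lost without control replicate 2 (edgeR adjusted p = 0.0975) and without control replicate 3 (edgeR adjusted p = 0.0793). Tested hepatocyte markers had a median of 4.68 for stretch replicate 1 over the other stretch libraries, and 1.83 for those libraries over control, while C4b had 4.92 and 1.92. The part of hepatocyte RNA in the C4b rise was not tested.

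Reads of C4b may be shared with C4a, its tandem copy, which in mouse encodes the sex-limited protein. Of the 50-base windows in the longest C4b transcript of GENCODE's GRCm38 annotation, 35.2% occur in that of C4a, so the authors' counting could have split or dropped such reads. C4a itself had 57, 36 and 33 counts in stretch replicates 1, 2 and 4, against 23, 22 and 12 counts in control replicates 2, 3 and 4. C4a did not pass (edgeR adjusted p = 0.0714), at a log2 fold change of 1.02 with an SE of 0.40.

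C2 encodes the serine protease of the same convertase and showed no clear difference (chromosome 17, 34862602 to 34882100, minus strand). It was at 4.05, 4.01 and 5.07 CPM in stretch replicates 1, 2 and 4, against 4.30, 4.71 and 3.23 CPM in control replicates 2, 3 and 4. These ranges overlap, and the log2 fold change was 0.10 ± 0.18 (SE; edgeR adjusted p = 0.680). It was 0.16 without stretch replicate 1, and its sign turned without stretch replicate 4 (-0.02) and without control replicate 4 (-0.04).

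Masp1 was lower in the stretch libraries. It encodes a protease that acts with mannose-binding lectin, ficolins and collectins, and by another transcript the protease MASP-3 (chromosome 16, 23451785 to 23520590, minus strand). Masp1 was at 61.5, 66.6 and 64.1 CPM in stretch replicates 1, 2 and 4, against 90.7, 83.5 and 81.99 CPM in control replicates 2, 3 and 4. The groups were well apart, and stretch replicate 1 was at 0.941 times the mean of the other stretch libraries. The log2 fold change was -0.41 ± 0.05 (SE; edgeR adjusted p = 0.000570), and -0.38 ± 0.06 without stretch replicate 1 (edgeR adjusted p = 0.00210). It passed in each of the 17 alternatives tried. Of 20 endothelial markers 14 were also lower after stretch, against 22.6% of all genes tested, with a median log2 fold change of -0.34 over the 20. The part of this in the falls of Masp1 and Cd59a was not tested. Counts per gene cannot tell the Masp1 transcripts apart.

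Among the central and alternative pathway genes, C3 rose in all 3 stretch libraries alike. C3 is the component on which all pathways converge and the source of the opsonin C3b and the anaphylatoxin C3a (chromosome 17, 57203973 to 57228136, minus strand). It had 12.5, 14.4 and 13.0 CPM in stretch replicates 1, 2 and 4, against 7.37, 7.53 and 9.36 CPM in control replicates 2, 3 and 4. Every stretch library exceeded every control library, and stretch replicate 1 was the lowest of the 3, at 0.911 times the mean of the others. The log2 fold change was 0.72 ± 0.11 (SE; 1.64-fold; edgeR adjusted p = 0.00131), and without stretch replicate 1 it was 0.77 ± 0.12 (edgeR adjusted p = 0.00228). The call held in each of the 17 alternatives, with log2 fold changes from 0.63 to 0.84. The sums of hepatocyte, macrophage and bile duct markers were also higher in every stretch library than in every control library. Their part in the C3 difference was not tested.

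Cfb encodes factor B, the protease of the alternative convertase (chromosome 17, 34856374 to 34862514, minus strand). Its levels were 8.30, 3.31 and 3.97 CPM in stretch replicates 1, 2 and 4, against 2.59, 2.91 and 2.45 CPM in control replicates 2, 3 and 4. The groups did not overlap, and stretch replicate 1 was 2.28 times the mean of the other stretch libraries. With all libraries Cfb passed as higher, by 1.96-fold (log2 fold change 0.97 with an SE of 0.32; edgeR adjusted p = 0.0387). Without stretch replicate 1 the log2 fold change was 0.47 ± 0.17 (1.38-fold) and the call was lost (edgeR adjusted p = 0.0650). The call was also lost without control replicates 2, 3 and 4 in turn (edgeR adjusted p = 0.112, 0.0724 and 0.111), at log2 fold changes of 0.95, 1.04 and 0.92. Hepatocyte markers moved in the same direction, and their part in the rise of Cfb was not tested.

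Cfb and C2 lie end to end and arose by duplication, but the 50-base windows of their transcripts had 0 in common. GENCODE also annotates Gm20547, a gene model whose exons overlap those of both, so reads from it cannot be told apart from theirs. The log2 ratio of Cfb to C2 CPM within a library was 1.03, -0.27 and -0.35 in stretch replicates 1, 2 and 4, against -0.73, -0.70 and -0.40 in control replicates 2, 3 and 4. Every stretch value was above every control value (p = 0.1 by an exact permutation test, two-sided, which 3 against 3 cannot go below). The mean difference in this log2 ratio was 0.74 with all libraries and 0.30 without stretch replicate 1. This ratio was chosen after the values were seen.

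Cfp encodes properdin, which stabilises the alternative convertase and is made largely by myeloid cells (chromosome X, 20925535 to 20931524, minus strand). It had 170, 148 and 147 counts in stretch replicates 1, 2 and 4, against 108, 98 and 94 counts in control replicates 2, 3 and 4. Scaled to library size these were 3.05, 2.18 and 2.61 CPM in the stretch libraries, against 1.83, 1.94 and 1.76 CPM in the control libraries. The groups did not overlap, but the log2 fold change, 0.50 ± 0.19 (SE), did not pass (edgeR adjusted p = 0.0564). It was 0.39 ± 0.19 without stretch replicate 1 (edgeR adjusted p = 0.153), and it passed without stretch replicate 2 (log2 fold change 0.63, edgeR adjusted p = 0.0361). Stretch replicate 1 stood at 1.27 times the mean of the other stretch libraries. The 14 macrophage markers tested had a median of 1.27 for this ratio, over a range of 0.864 to 2.96. Those other stretch libraries over control stood at 1.30 for Cfp, against a median of 1.61 for these markers. The part of macrophage RNA was not tested.

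**Figure D3:**
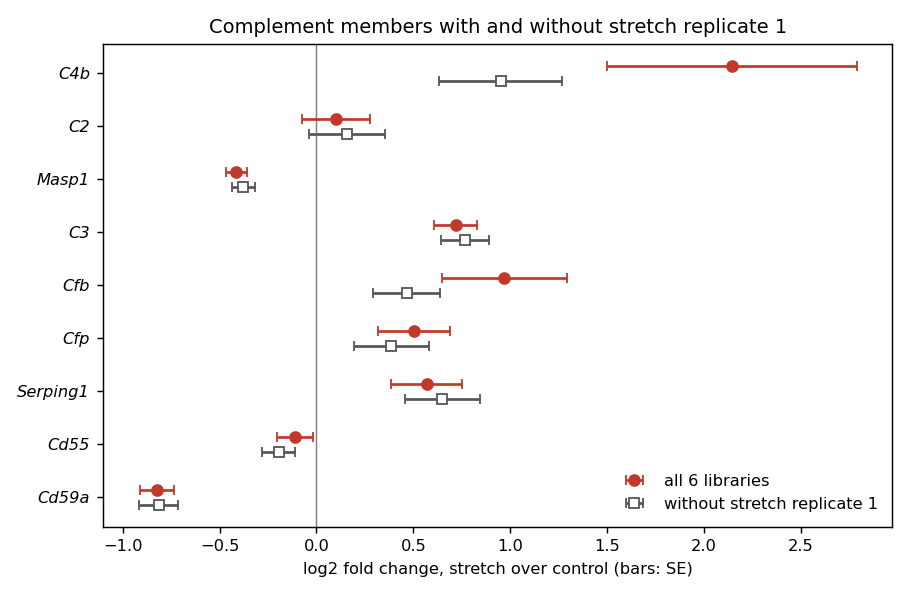
Log2 fold change of stretch over control for each member, with all 6 libraries (filled) and without stretch replicate 1 (open); bars are SEs from edgeR. C4b and Cfb move furthest when that library is left out (C4b has 2.14 with it and 0.95 without it, Cfb 0.97 and 0.47), and the other 7 members move by at most 0.12.

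The inhibitors went in different directions. Serping1 encodes C1 inhibitor, a plasma serpin that blocks the proteases of the classical and lectin start and also plasma kallikrein (chromosome 2, 84765360 to 84775429, minus strand). It was at 3.59, 4.40 and 4.04 CPM in stretch replicates 1, 2 and 4, against 2.12, 2.87 and 3.14 CPM in control replicates 2, 3 and 4. The groups did not overlap, and stretch replicate 1 was the lowest stretch library. The log2 fold change was 0.57 ± 0.18 (SE; 1.48-fold; edgeR adjusted p = 0.0344), and 0.65 ± 0.19 without stretch replicate 1 (edgeR adjusted p = 0.0314). The call was lost without stretch replicate 2 (log2 fold change 0.51, edgeR adjusted p = 0.0959), stretch replicate 4 (0.56, edgeR adjusted p = 0.0863), control replicate 2 (0.42, edgeR adjusted p = 0.108) or control replicate 3 (0.61, edgeR adjusted p = 0.0626). With library sizes alone as scaling it was lost as well (log2 fold change 0.48, edgeR adjusted p = 0.0756).

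Cd59a showed the largest decrease among the members. It encodes the membrane protein CD59, which blocks the last step, the assembly of the lytic pore (chromosome 2, 104095801 to 104115351, plus strand; promoter shown above). Cd59a was at 40.7, 43.2 and 38.4 CPM in stretch replicates 1, 2 and 4, against 80.9, 63.1 and 72.5 CPM in control replicates 2, 3 and 4. The highest stretch library was far below the lowest control library. The log2 fold change was -0.82 ± 0.09 (SE; edgeR adjusted p = 0.000216), and -0.82 ± 0.10 without stretch replicate 1 (edgeR adjusted p = 0.000802). All 17 alternatives kept the call, with log2 fold changes from -0.91 to -0.73. Its close relative Cd59b, mainly known from testis, had 4, 4 and 2 counts in stretch replicates 1, 2 and 4 and 17, 6 and 8 counts in control replicates 2, 3 and 4, too few to be tested, and 3.98% of the 50-base windows of Cd59a occur in it.

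Cd55, the decay accelerating factor that takes C3 convertases apart on the cell surface, did not pass (chromosome 1, 130439030 to 130462740, minus strand). It was at 305, 243 and 265 CPM in stretch replicates 1, 2 and 4, against 278, 325 and 275 CPM in control replicates 2, 3 and 4. The ranges overlap widely, and the log2 fold change was -0.11 ± 0.09 (SE; edgeR adjusted p = 0.377), with a range of -0.20 to -0.03 over the 17 alternatives. Stretch replicate 1 was at 1.199 times the mean of the other stretch libraries, and without it the value was -0.20 ± 0.09 (edgeR adjusted p = 0.115). Cd55b, listed under its older symbol Daf2, did not pass either (log2 fold change 0.08 ± 0.14), and its sign turned without stretch replicate 1 (-0.06), without control replicate 3 (-0.0082) and with library sizes alone (-0.01). Of the 50-base windows of Cd55 13.3% are shared with Cd55b.

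Set against one another within each library, the log2 ratio of C3 to Cd59a CPM was -1.70, -1.59 and -1.56 in stretch replicates 1, 2 and 4, against -3.46, -3.07 and -2.95 in control replicates 2, 3 and 4. The mean difference was 1.54, and 1.58 without stretch replicate 1 (p = 0.1 by the same exact permutation test). C3 by itself was higher, and Cd59a by itself lower, in every stretch library than in every control library. Their ratio therefore had to separate the groups, so this test adds nothing to the values of each gene. This pair was chosen after the values were seen. Besides it and the pair of Cfb and C2, the log2 ratio of C3 to Cd55 was also separate, with a mean difference of 0.84. That of C4b to C4a overlapped between the groups, at 3.08, 1.52 and 1.76 in stretch replicates 1, 2 and 4. In control replicates 2, 3 and 4 it was at 0.869, 0.826 and 2.48.

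The members fell into kinds by how far they rested on stretch replicate 1. C4b and Cfb, at 4.92 and 2.28 times the mean of the other stretch libraries, were within the range of the hepatocyte markers, which ran from 1.62 to 7.06. Cfp and Cd55 were slightly high in it, at 1.27 and 1.199 times. C3, Serping1, C2, Masp1 and Cd59a lay between 0.850 and 0.996 times. Over all genes tested the median of this ratio was 0.997.

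**Figure D4:**
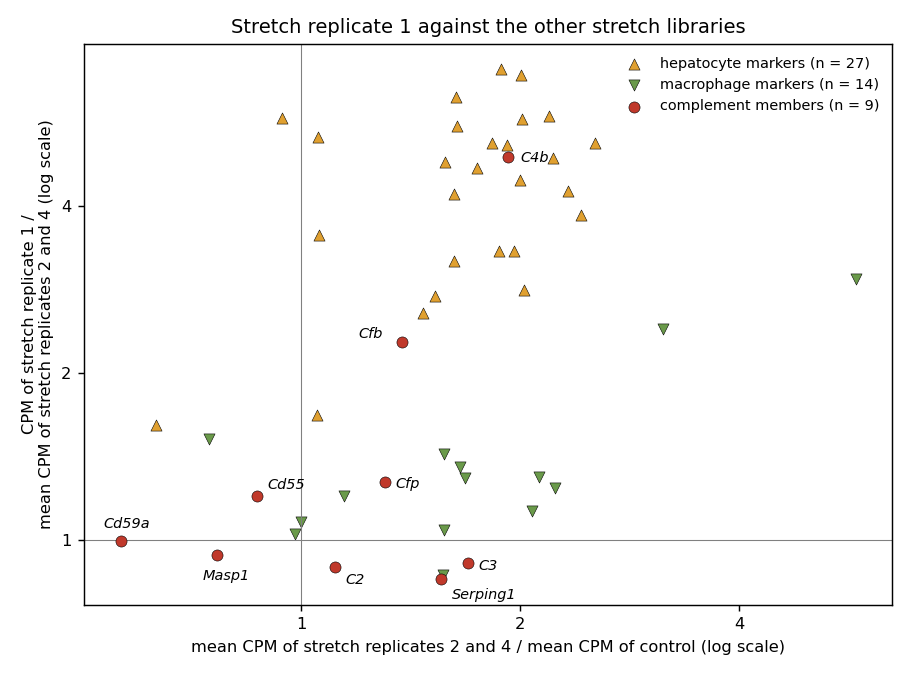
For each tested gene, CPM in stretch replicate 1 over the mean of stretch replicates 2 and 4 (vertical, log scale) against that mean over the control mean (horizontal, log scale), for the 9 members and for hepatocyte and macrophage markers. C4b sits inside the cloud of hepatocyte markers and Cfb in its lower part, and the other 7 members lie near 1 on the vertical axis.

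In the authors' deposited table, which tests 23336 genes and passes 24.5% of them at an FDR under 0.05, 5 members passed in the same directions as here. That table gives an FDR of 4.15e-06 for C3, 0.00480 for C4b, 0.0279 for Cfb, 8.40e-15 for Cd59a and 5.25e-08 for Masp1. Serping1 (FDR 0.0708) and Cfp (FDR 0.164) did not pass in the authors' deposited table.

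Over the 6 libraries the genes whose log2 CPM was most like that of a member were picked by Pearson's r among genes with a mean log2 CPM of at least 3. With so few libraries, sharing depth and group, such values are only descriptions: 867 of 9037 genes had an r above 0.9 with C3, and 1726 with Cd59a. C4b was closest to Apoc2, an apolipoprotein gene of hepatocytes (r = 0.992), Stard10 (0.989) and Tgoln2 (0.989). Closest to C3 were Gprc5a (0.997), Ttpal (0.995) and Socs2, a cytokine signalling inhibitor (0.994). For Cfp the nearest was Thbd, encoding thrombomodulin (0.997), then Rufy3 (0.996) and Mgat5 (0.994). Cd59a was closest to the cannabinoid receptor gene Cnr2 (1.000), to Tgfbr2 (0.998) and to Fmo1 (0.998), and Masp1 to Tmem140 (0.999), 3110062M04Rik (0.999) and Itsn1 (0.998). Near to Cfb were Ppap2c (0.989) and Cox7c (0.987), and to Serping1 Clptm1l (0.988), Faf2 (0.987) and Trmt11 (0.986). C2 was nearest to Prdx6 (0.976), Cenpc1 (0.971) and Fmn1 (0.966), and Cd55 to Twf1 (0.972), Zcchc17 (0.964) and Ctbs (0.962).

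Beyond the members, 50 other complement genes were looked up by role, and 31 of them had enough counts to be tested. Of these 12 were higher, 1 was lower and 18 did not pass, with a median log2 fold change of 0.54, where 21.4% of all genes were higher and 22.6% lower. Without stretch replicate 1, 9 were higher and 1 lower of 33 tested, where 18.1% and 19.0% of all genes were.

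Among the 10 initiation genes with enough counts, 3 were higher, 0 were lower and 7 did not pass. The 3 were C1qa, C1qb and C1qc, the chains of C1q, which binds antibody and starts the classical pathway and is made mainly by macrophages. C1qb was at 2.995, 1.37 and 2.92 CPM in stretch replicates 1, 2 and 4, against 0.813, 0.712 and 0.635 CPM in control replicates 2, 3 and 4, a 3.35-fold rise (log2 fold change 1.75 ± 0.33, edgeR adjusted p = 0.00314). C1qa and C1qc rose 5.73-fold and 3.17-fold, and all of the 3 passed without stretch replicate 1. These stood beside macrophage markers, of which 8 of 14 tested were higher and 0 lower, against 21.4% and 22.6% of all genes tested. The part of macrophages was not tested. The proteases C1ra (log2 fold change -0.28, edgeR adjusted p = 0.0783) and Masp2 (0.26, edgeR adjusted p = 0.245) did not pass.

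Of the 8 amplification and terminal genes only Hc, which encodes C5, was tested. Hc had 6.40, 5.30 and 4.94 CPM in stretch replicates 1, 2 and 4, against 10.2, 6.58 and 6.58 CPM in control replicates 2, 3 and 4, and did not pass (log2 fold change -0.49 ± 0.19, edgeR adjusted p = 0.0689). It passed with DESeq2 (adjusted p = 0.0400), with library sizes alone (edgeR adjusted p = 0.0318) and with the replicate number as a block (edgeR adjusted p = 0.00707). In the other 14 of 17 alternatives Hc did not pass. Without control replicate 2, its highest library, the log2 fold change was -0.25 (edgeR adjusted p = 0.247). The lytic pore genes C6, C7, C8a, C8b, C8g and C9 and the factor D gene Cfd were under the filter on low counts.

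The 12 regulators tested comprised 4 that were higher, 0 lower and 8 that did not pass. Over all genes tested 21.4% were higher and 22.6% lower. Without stretch replicate 1, 2 regulators were higher and 0 lower of 13 tested, where 18.1% and 19.0% of all genes were. Clu, encoding clusterin, which keeps terminal complexes out of membranes, was at 463, 362 and 316 CPM in stretch replicates 1, 2 and 4, against 172, 199 and 220.0 CPM in control replicates 2, 3 and 4. All stretch libraries exceeded all control libraries, by 1.93-fold on average (log2 fold change 0.95 ± 0.14, edgeR adjusted p = 0.000953), and by 1.73-fold without stretch replicate 1. Thbd, whose product thrombomodulin dampens both clotting and complement, rose 1.45-fold (edgeR adjusted p = 0.00406). Cpb2, a plasma carboxypeptidase gene of hepatocytes, rose 4.05-fold (edgeR adjusted p = 0.0306), and Cfhr2 2.71-fold (edgeR adjusted p = 0.0366). Neither of these kept its call without stretch replicate 1 (1.92-fold, edgeR adjusted p = 0.0845 for Cpb2, and 1.91-fold, 0.138 for Cfhr2), nor without control replicate 2 (0.0764 and 0.129), control replicate 3 (0.0915 and 0.0744) or control replicate 4 (0.0619 and 0.0790). Cfhr2 also lost its call without stretch replicate 2 (edgeR adjusted p = 0.0575). Cr1l, the rodent membrane inhibitor Crry, was at 109.9 ± 2.40 CPM in stretch and 104.0 ± 0.998 CPM in control libraries (SD, n = 3 per group), a log2 fold change of 0.08 that did not pass and whose sign turned with library sizes alone (-0.01).

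Of 8 tested receptors 5 rose, 1 fell and 2 did not pass, where 21.4% of all genes tested were higher and 22.6% lower. Without stretch replicate 1, 4 receptors were higher and 1 lower of 9 tested, where 18.1% and 19.0% of all genes were. Cd93, once named as a C1q receptor and typical of endothelium, was at 3129 ± 414 CPM in stretch and 1941 ± 128 CPM in control libraries (SD, n = 3 per group), a 1.61-fold rise (edgeR adjusted p = 0.000690). The C3a receptor gene C3ar1 rose 1.93-fold (edgeR adjusted p = 0.00538) and the integrin chain Itgb2 1.89-fold (edgeR adjusted p = 0.00558). Vsig4, a Kupffer cell receptor for C3b, had 84, 37 and 23 counts in stretch replicates 1, 2 and 4, against 7, 9 and 4 counts in control replicates 2, 3 and 4 (6.54-fold, edgeR adjusted p = 0.00755, and 3.85-fold, 0.0180 without stretch replicate 1). Itgam rose 1.93-fold (edgeR adjusted p = 0.0263), a call lost without stretch replicates 1 and 2 (0.0750 and 0.0618) and without control replicates 2, 3 and 4 (0.0512, 0.0709 and 0.0881). The sum of macrophage markers was also higher in every stretch library than in every control library. Its part in the rises of C3ar1, Itgb2, Vsig4 and Itgam was not tested. The 1 that fell was the second C5a receptor, C5ar2, listed as Gpr77. It was at 3.82, 4.32 and 3.93 CPM in stretch replicates 1, 2 and 4, against 10.9, 9.25 and 11.3 CPM in control replicates 2, 3 and 4, a 2.61-fold fall that held in each of the 17 alternatives (log2 fold change -1.38 ± 0.12, edgeR adjusted p = 8.53e-05). C5ar1, the main C5a receptor, did not pass (log2 fold change -0.24 ± 0.19, with 0.01 without control replicate 4), and neither did Itgax (0.54 ± 0.76, with -0.22 without stretch replicate 2).

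**Figure D5:**
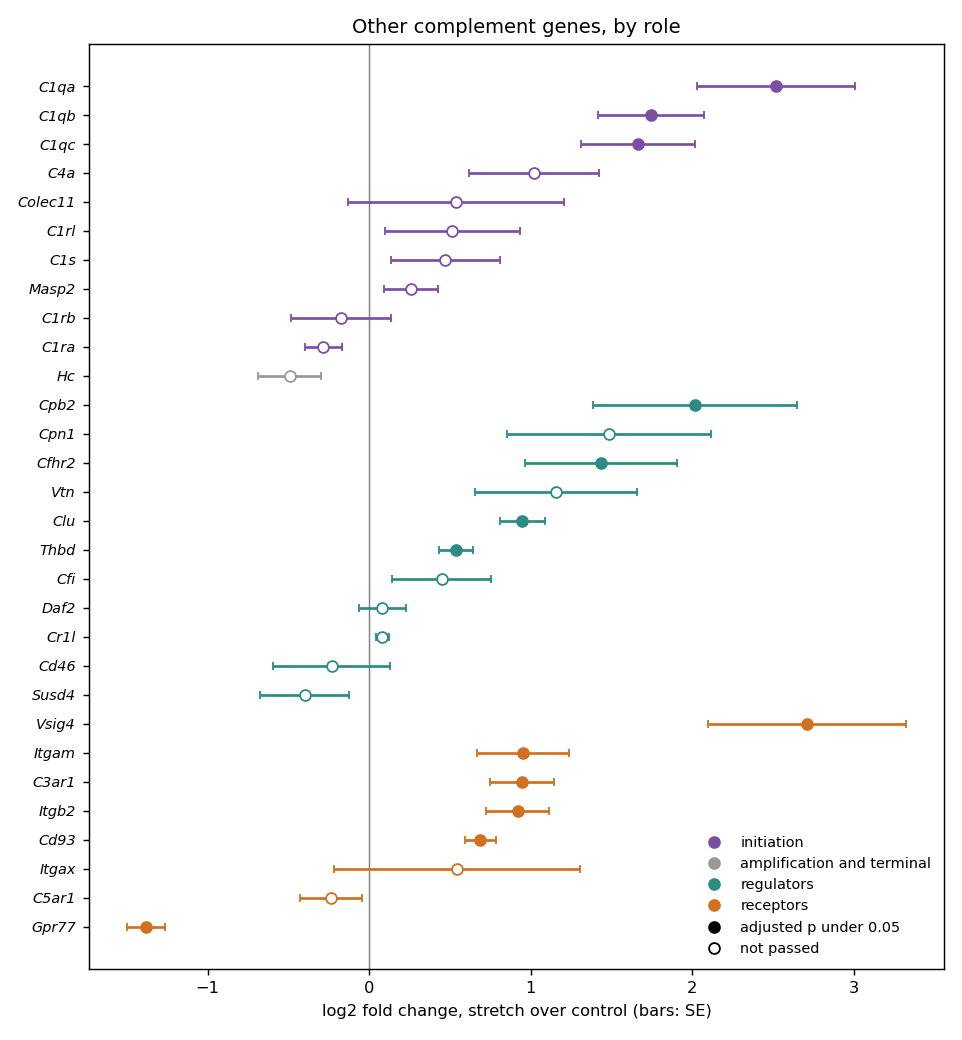
Log2 fold change of stretch over control for other complement genes tested, coloured by role; bars are SEs from edgeR, and filled points passed an adjusted p of 0.05. The 3 C1q chains and Vsig4 have large increases, and Gpr77 is the 1 filled point to the left of 0.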

How the data were processed

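RNA of 3 stretch and 3 control libraries was made into TruSeq libraries, per the labels, which also give the groups. The raw counts per gene, the RPKM values per kilobase of coding length, and a comparison table with log2 fold changes, a likelihood ratio score and a p-value with its FDR were deposited by the authors. GRCm38 (mm10), edgeR, featureCounts and TopHat2 2.1.0 appear in the submitters' processing notes; the annotation and the strand setting are not known from what was used here, so for genes that overlap on either strand the reads cannot be separated.

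The test was that of edgeR 4.0.16 under R 4.3.3 (filterByExpr, TMM, quasi-likelihood F test, Benjamini-Hochberg over 14222 genes). Calls needed an adjusted p under 0.05 and no set fold. CPM are counts scaled to the TMM-adjusted library size. The SE is the log2 fold change over the square root of F. The steps were tested on simulated data. Marker sums and ratios were compared over libraries with a two-sided exact permutation test. No library pair of a group agreed within sampling noise (chi-square per degree of freedom of at least 18.0). Replicate numbers 2 and 4 occur in both groups, and no label says that they mark a shared isolation.

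The members and lists were chosen with earlier results of these data known. Named were all members, their near copies, in each other complement list every called gene and up to 2 uncalled ones of the highest mean CPM, in each marker list the 2 of the highest mean CPM, and for each member the 3 genes most like it; some genes under this rule are not reported here. Older symbols were used for C1s1, C1s2, Cd55b, C5ar2, Adgre1 and Spi1, and Cfhr3, Muc16 and Ly6g were not found. As alternatives the scaling (upper-quartile, RLE, library size only), the filter (none, or 1 CPM in 3 samples) and the test were changed. Other tests were limma-voom (limma 3.58.1), DESeq2 1.42.0, robust dispersion, glmTreat with a fold of 1.2 and the exact test of edgeR. Each library was also omitted once, and the replicate number was added as a block.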

Additional observations from a re-analysis of the deposited data

How the results depend on the processing

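C3 higher, Cd59a lower and Masp1 lower kept direction and call in all 17 alternatives, and Cd55 stayed below 0 and uncalled. With glmTreat against a fold of 1.2, 1210 genes were higher and 1327 lower, and 1 member was higher. Members called higher numbered 2 with limma-voom and 2 with robust dispersion, where 2929 and 2962 of 14222 genes were higher. With a library left out they numbered 1 to 4, where 2348 to 3022 of 14460 to 14544 genes were higher. C4b lost its call with limma-voom (log2 fold change 1.68), robust dispersion and glmTreat (2.14 in both), and ranged from 0.95 to 2.55 with a library left out. Cfb lost it with limma-voom (0.82), robust dispersion and glmTreat (0.97 in both), and ranged from 0.47 to 1.22. Serping1 lost it with library size only (0.48) and glmTreat (0.57), and ranged from 0.42 to 0.69. Cfp passed with a filter of 1 CPM in 3 samples (0.51) and ranged from 0.39 to 0.63, and C2 ranged from -0.042 to 0.21. The cause was not tested. Other complement genes called lower numbered 4 with library size only and 2 with DESeq2, where 4299 of 14222 and 2958 of 14986 genes were lower. With a library left out they numbered 1 to 3, where 2408 to 2873 of 14460 to 14544 genes were lower. The median log2 fold change of all genes was -0.01, and -0.11 with library size only. Signs turned with library size only for Cr1l (-0.012) and Daf2 (-0.011). With a library left out Daf2 ranged from -0.060 to 0.21, C5ar1 from -0.39 to 0.011 and Itgax from -0.22 to 1.16.

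With the replicate number as a block, 3 members were higher and 2 lower, and 9 other complement genes were higher and 3 lower. Of all 14222 genes tested in that fit, 2713 were higher and 2855 lower. Cfb lost its call (log2 fold change 0.52, edgeR adjusted p = 0.0543), and the signs of Daf2 (-0.15) and Itgax (-0.014) turned. C4b kept its call at 0.87 (1.83-fold) and C1qa at 1.91 (3.75-fold), and Cpb2 (1.53-fold, edgeR adjusted p = 0.0597), Cfhr2 (0.167) and Itgam (0.146) lost theirs. Only numbers 2 and 4 are shared, the correlation of deviations was 0.21 and 0.11, and nothing in the labels makes these pairs. C4b, Vsig4, C1qa and Cfhr2 rest on few counts in control libraries, which limits their precision.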

Other observations

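C4b, C2 and Cfb sit in a gene-dense part of chromosome 17. Of the 10 genes within 50 kb of them that are not members, 1 rose, 3 fell and 6 did not pass, where 21.4% of all genes tested were higher and 22.6% lower. The choline transporter gene Slc44a4 rose (log2 fold change 1.23 with an SE of 0.34; edgeR adjusted p = 0.0187). The histone methyltransferase gene Ehmt2 fell, at 75.8 ± 2.48 CPM in stretch and 102.4 ± 1.56 CPM in control libraries (SD, n = 3 per group; log2 fold change -0.43), and Zbtb12 (-0.51) and the RNA helicase gene Skiv2l (-0.30) fell as well. Stk19, which lies beside C4a, had a log2 fold change of -0.03 and Rdbp, beside Cfb, one of -0.02, and neither passed.

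Transcription regulators known to act on complement genes comprised 15 tested, with 6 higher, 4 lower and 5 not passing, against the same shares over all genes. The genes given here were picked after their values were seen. The NF-kB subunit genes Rela and Relb rose, Relb to 101.7 ± 2.58 CPM in stretch libraries against 61.7 ± 4.01 CPM in control libraries (SD, n = 3 per group), and so did Cebpb (log2 fold change 0.48 ± 0.14). The interferon signalling gene Stat2 fell (log2 fold change -0.57), as did Nr1h4, which encodes the bile acid receptor FXR (-1.10). Receptor chains for cytokines that induce complement genes comprised 11 tested, with 6 higher, 3 lower and 2 that did not pass. Over all genes tested 21.4% were higher and 22.6% lower. Without stretch replicate 1, 4 of the 11 chains were higher and 2 lower, where 18.1% and 19.0% of all genes were. The interferon gamma receptor chain Ifngr1 was at 109.3 ± 4.57 CPM in stretch and 84.2 ± 1.495 CPM in control libraries, and the TNF receptor Tnfrsf1a at 147 ± 2.44 CPM in stretch and 188.6 ± 7.58 CPM in control libraries (SD, n = 3 per group).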
